A study of Mus musculus with 12 samples.

Results

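The genes described here are the mouse proteasome genes, taken by symbol: every gene whose symbol starts with Psma, Psmb, Psmc, Psmd or Psme followed by a number. Muscle RNA of 12 mice aged 16 weeks was hybridised to Affymetrix arrays, 3 mice in each of 4 groups. The groups were wild-type mice on a normal diet (WT ND), wild-type mice on a high fat diet (WT HFD), GPR120 knockout mice on a normal diet (KO ND) and GPR120 knockout mice on a high fat diet (KO HFD), all on a mixed background of 129/Sv and C57BL/6. GPR120 is a receptor for long-chain fatty acids, encoded by Ffar4, and the design asks how muscle differs with diet, with its loss and with both. Of 18193 genes with a probe set of a single symbol, 44 fitted the symbol rule, and 42 of these were among the 11345 genes bright enough to test.

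The 44 genes fell into known roles. There were 7 genes for the alpha subunits of the 20S core (Psma1 to Psma7), 7 for its constitutive beta subunits (Psmb1 to Psmb7), 3 for immunoproteasome subunits (Psmb8, Psmb9 and Psmb10), 6 for the ATPases of the 19S regulator (Psmc1 to Psmc6), 11 for its other subunits, 3 for chaperones that assemble its base (Psmd5, Psmd9 and Psmd10) and 3 for activators (Psme1, Psme3 and Psme4). The core and regulator genes together, without the immunoproteasome, are called the 26S subunits below and number 31. The symbol rule also took Psmc3ip and Psme3ip1, which encode proteins that are not proteasome subunits. Psma8, a testis subunit, and Psmb11, a thymus subunit, had mean log2 signals of 0.36 and 0.56, below the filter of 3.78, and were not tested. The single probe set that names Psme2, the partner of Psme1, also names a second gene, so Psme2 has no value here.

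The proteasome is the protease that degrades proteins tagged with ubiquitin. The alpha subunits form the outer rings and gates of its barrel-shaped core, the beta subunits form the inner rings and carry the proteolytic sites, and the 19S regulator binds, unfolds and feeds in the substrate. In skeletal muscle this system breaks down myofibrillar proteins, and its activity is known from studies of wasting, fasting and denervation. Interferon-gamma induces Psmb8, Psmb9 and Psmb10, which take the places of Psmb5, Psmb6 and Psmb7 in newly built cores and favour the peptides shown on MHC class I. The transcription factor Nfe2l1, with small Maf proteins as partners, raises proteasome genes when proteolysis is blocked.

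Promoter windows of Psmd12, Psmc6, Psmb5 and the interferon-inducible Psmb8 show where short motifs of these factors lie. The sequences are RefSeq's for GRCm38.p6, each running 5′ to 3′ along the strand of its gene and ending at or before the start given in RefSeq's promoter table, with the motif in capitals. The first 3 hold the antioxidant response core TGACNNNGC, the kind of site that Nfe2l1 and its relatives bind, and the last holds TTCNNNGAA, a gamma-activated site of the interferon pathway.
Psmd12 (chr11:107479278-107479315, plus strand): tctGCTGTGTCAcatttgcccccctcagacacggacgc
Psmc6 (chr14:45329574-45329631, plus strand): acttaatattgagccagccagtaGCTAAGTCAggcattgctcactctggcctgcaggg
Psmb5 (chr14:54618008-54618068, minus strand): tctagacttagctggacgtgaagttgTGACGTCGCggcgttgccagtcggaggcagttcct
Psmb8 (chr17:34198072-34198132, plus strand): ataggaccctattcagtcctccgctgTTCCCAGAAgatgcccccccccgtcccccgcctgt
In Psmd12 and Psmc6 the motif lies on the opposite strand and is read there in reverse complement; TTCNNNGAA is its own reverse complement. Both strands were searched over 300 bases, from 250 before to 50 after each start. TGACNNNGC was present in 6 of the 40 promoters found for 37 member genes (15%), those of Psmb5, Psmb6, Psmc6, Psmd12, Psmd9 and Psme4, and in 12.4% of all 32851 promoters. TTCNNNGAA was present in 2 of the 40 (5%), Psmb8 and Psmd2, against 8.30% of all. GAAANNGAA, the core of the interferon-stimulated response element, was present in 6 of the 40 (15%), against 8.56% of all. The 6 were those of Psmb3, Psmb4, Psmc2, Psmd4, Psmd9 and Psme1. The Psmd9 promoter held both TGACNNNGC and GAAANNGAA. These matches describe letters in a window and show no binding.

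The deposited values were log2 signals, and array medians lay between 3.87 and 4.17. All 10 skeletal muscle fibre genes listed as a check of the tissue label, among them Acta1 and Ckm, had mean log2 signals between 12.29 and 13.97. Ffar4 lay below the filter, with group means of 0.23 in WT ND, 1.41 in WT HFD, 2.48 in KO ND and 2.31 in KO HFD, so it does not check the genotype labels. The log2 ratio of 3′ to 5′ control probe sets for beta-actin and Gapdh, a measure of RNA and labelling quality, was -0.08 to 0.09 in WT ND, 0.16 to 0.20 in WT HFD, 0.01 to 0.12 in KO ND and 0.02 to 0.28 in KO HFD. The labels number the mice of each group in a range of its own, so a cohort or litter effect cannot be told apart from the group. Within a group the mice are called 1, 2 and 3 in the order in which values are given. A probe set measures muscle as a whole, and fewer cells of a type cannot be told apart from less RNA per cell.

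High fat diet went with lower signals of several 19S subunits and with a higher signal of the immunoproteasome subunit Psmb10. When the diet difference was averaged over both genotypes, 7 members fell: the lid subunits Psmd7, Psmd8, Psmd11 and Psmd12, the alpha subunits Psma1 and Psma7, and the beta subunit Psmb2. One member, Psmb10, rose. A gene was counted when its adjusted p in limma, by Benjamini-Hochberg over all 11345 genes, was under 0.05. The 7 of 42 members that fell stand beside 6.19% of all genes tested, and the single member that rose stands beside 7.49%. No KO against WT difference passed the test for any member.

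**Figure D1:**
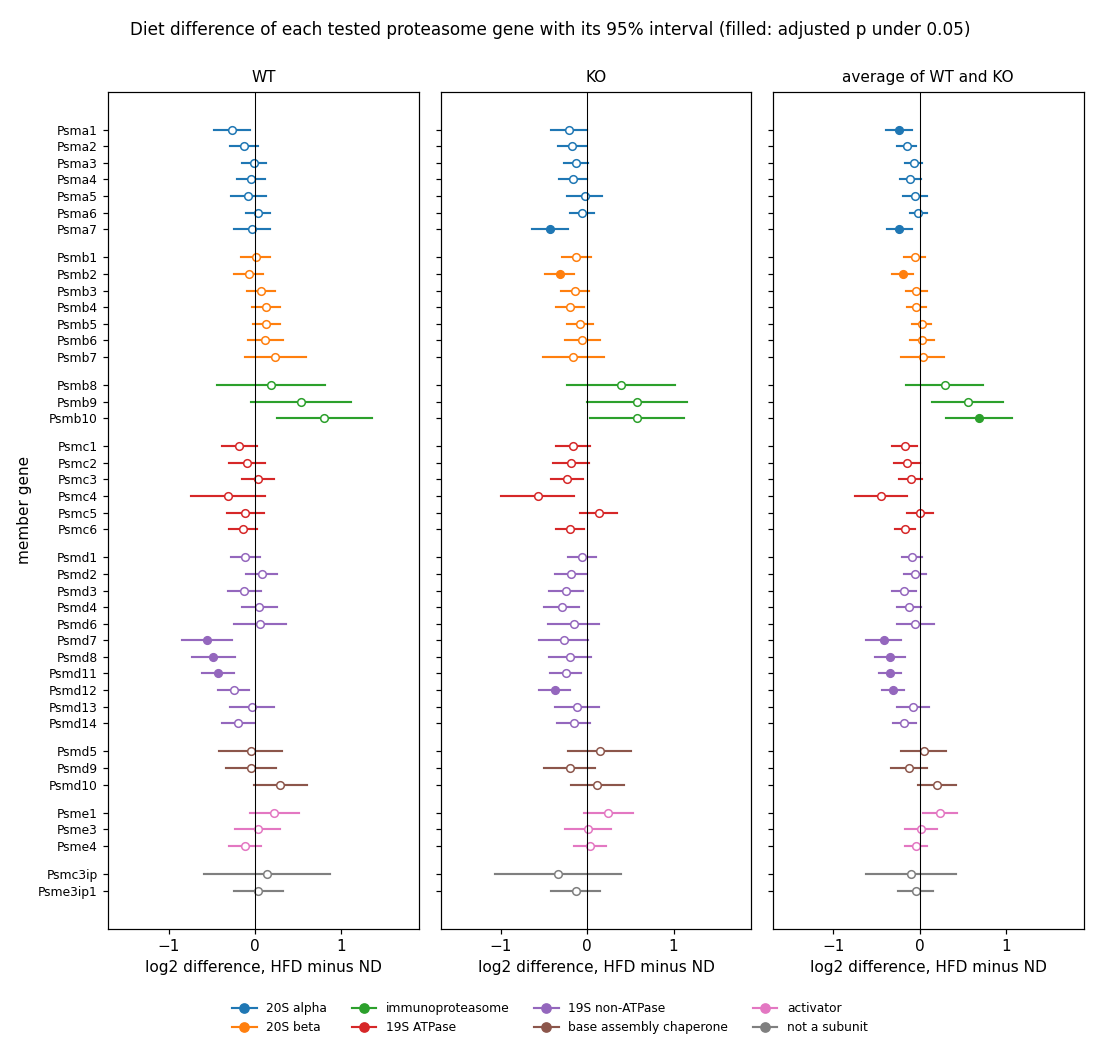
Log2 difference, HFD minus ND, of the 42 tested members in WT, in KO and averaged over both, with 95% intervals from limma and coloured by role; filled points passed an adjusted p of 0.05. Filled points left of 0 are Psmd7, Psmd8 and Psmd11 in WT, Psma7, Psmb2 and Psmd12 in KO, and these and Psma1 in the average, where Psmb10 is the filled point right of 0.

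The non-ATPase subunits of the 19S regulator held most of the members that fell. Psmd11, a scaffold subunit of the lid, had log2 signals of 11.90, 12.02 and 12.20 in WT ND and 11.57, 11.61 and 11.66 in WT HFD. It had 11.96, 11.94 and 12.02 in KO ND and 11.84, 11.64 and 11.69 in KO HFD. Every HFD mouse of a genotype lay below every ND mouse of that genotype. In WT Psmd11 fell by 0.43 ± 0.08 on the log2 scale (SE, 0.74-fold, limma adjusted p = 0.0125), and in KO its difference was -0.25 ± 0.08 (adjusted p = 0.109). Averaged over both genotypes it fell by 0.34 ± 0.06 (adjusted p = 0.00298). Psmd11 has 8 probe sets, and with each probe set tested on its own the next brightest had differences of -0.42 in WT (limma adjusted p = 0.0478) and -0.47 in KO (adjusted p = 0.0385). The next one had -0.79 in WT (adjusted p = 0.0106) and -0.39 in KO (adjusted p = 0.189), and the one after it -0.19 in WT (adjusted p = 0.325) and -0.27 in KO (adjusted p = 0.192). With the mean of all its probe sets, 3 of which lie below the filter, Psmd11 lost its calls, with -0.24 in WT (adjusted p = 0.504) and -0.25 in the average (adjusted p = 0.254).

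Psmd12, a lid scaffold subunit whose promoter is printed above, had log2 signals of 10.63, 10.70 and 10.76 in WT ND and 10.38, 10.39 and 10.59 in WT HFD. In KO it had 10.75, 10.80 and 10.75 on ND and 10.29, 10.46 and 10.41 on HFD. The diets did not overlap in either genotype. It fell by 0.38 ± 0.08 in KO (0.77-fold, limma adjusted p = 0.0258) and by 0.31 ± 0.06 in the average (adjusted p = 0.00474), and its WT difference was -0.25 ± 0.08 (adjusted p = 0.1). Psmd12 has 1 probe set.

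Psmd7, which pairs in the lid with the deubiquitinase Psmd14, had log2 signals of 9.45, 9.23 and 9.46 in WT ND and 9.07, 8.74 and 8.67 in WT HFD. In KO it had 9.23, 8.86 and 8.90 on ND and 8.63, 8.72 and 8.81 on HFD. KO ND mice 2 and 3 lay within the range of the WT HFD mice, and the KO ND mean was -0.39 ± 0.13 relative to WT ND (limma adjusted p = 0.278). Psmd7 fell by 0.56 ± 0.13 in WT (0.68-fold, adjusted p = 0.0284) and by 0.42 ± 0.09 in the average (adjusted p = 0.012); its KO difference was -0.27 ± 0.13 (adjusted p = 0.276). With the mean of all its probe sets both calls were lost (-0.38 in WT, adjusted p = 0.591; -0.57 in the average, adjusted p = 0.172). Psmd8, another lid subunit, had 11.43, 11.55 and 11.49 in WT ND and 10.98, 10.82 and 11.21 in WT HFD. In KO it had 11.46, 11.11 and 11.14 on ND and 11.15, 11.06 and 10.90 on HFD, where the diets overlapped. It fell by 0.48 ± 0.11 in WT (0.71-fold, limma adjusted p = 0.0263) and by 0.34 ± 0.08 in the average (adjusted p = 0.0144).

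**Figure D2:**
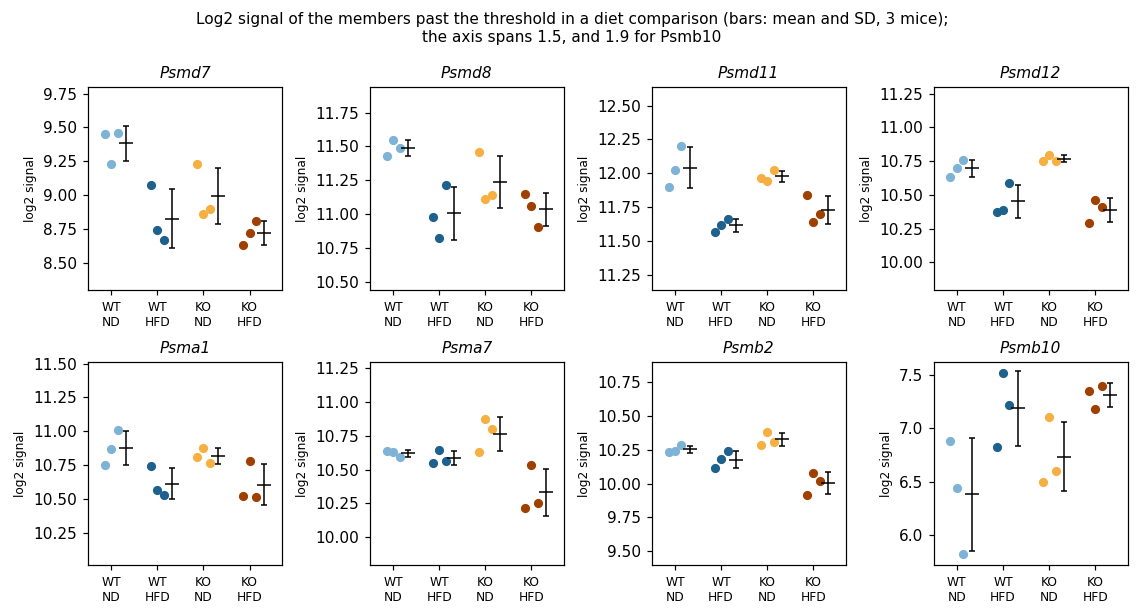
Log2 signal of each mouse (points) with the group mean and SD (bars, 3 mice a group) for the 8 members that passed the test in a diet comparison. The HFD mice lie below the ND mice of their own genotype for Psmd7, Psmd11 and Psmd12, while for Psma7 the WT diets overlap and for Psmb10 the HFD means are the higher ones.

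In WT 3 members fell, Psmd7, Psmd8 and Psmd11, and none rose, beside 2.99% of all genes that fell and 3.07% that rose. Leaving out WT ND mouse 3 left 0 of these calls, and leaving out WT ND mouse 2 or WT HFD mouse 2 left 1 each. With the 3′ to 5′ ratio as a covariate none passed, and the differences were then -0.48 for Psmd11, -0.53 for Psmd8 and -0.32 for Psmd7.

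The other 7 non-ATPase subunits did not pass in any diet comparison. Psmd1, Psmd3, Psmd13 and Psmd14 had differences below 0 in both genotypes, from -0.20 to -0.03 in WT and from -0.25 to -0.06 in KO. Psmd14, the deubiquitinase of the lid, had WT ND signals of 10.69, 10.68 and 10.79 and WT HFD signals of 10.42, 10.59 and 10.57, which did not overlap, and a difference of -0.20 ± 0.09 (limma adjusted p = 0.203). Psmd4, a ubiquitin receptor, had 10.86, 11.02 and 10.98 in KO ND and 10.64, 10.77 and 10.56 in KO HFD, a difference of -0.30 ± 0.09 (adjusted p = 0.0891), against 0.05 ± 0.09 in WT. All 11 non-ATPase genes had a KO diet difference below 0, and 8 of the 11 a WT one.

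The 6 ATPases form the ring that unfolds substrates, and none passed in any comparison with its brightest probe set. In 5 of the 6, all but Psmc3 in WT and all but Psmc5 in KO, the diet difference was below 0, with medians of -0.13 in WT and -0.20 in KO. Psmc4 had the lowest average difference of all members, -0.45 ± 0.14 (limma adjusted p = 0.0501). Its log2 signals were 11.03, 11.42 and 11.55 in WT ND, 11.20, 10.85 and 11.01 in WT HFD, 11.41, 11.41 and 11.28 in KO ND, and 10.26, 11.23 and 10.89 in KO HFD. KO HFD mouse 1 was the lowest of the 12. The second Psmc4 probe set, tested on its own, fell by 0.38 in WT (limma adjusted p = 0.0276), by 0.43 in KO (adjusted p = 0.0212) and by 0.41 in the average (adjusted p = 0.00157). Leaving out KO HFD mouse 2 brought the brightest probe set of Psmc4 past the threshold in KO (-0.80, adjusted p = 0.0384) and in the average (-0.56, adjusted p = 0.0135), and leaving out WT ND mouse 1 did so in the average (-0.52, adjusted p = 0.0273). The second Psmc2 probe set also fell in the average, by 0.34 (limma adjusted p = 0.00744), while the brightest had -0.14. Psmc6, whose promoter is printed above, had 10.51, 10.49 and 10.58 in WT ND, 10.37, 10.32 and 10.48 in WT HFD, 10.47, 10.53 and 10.51 in KO ND, and 10.30, 10.35 and 10.25 in KO HFD. Its diets did not overlap in either genotype, and its average difference was -0.17 ± 0.05 (adjusted p = 0.0527; 0.042 without WT HFD mouse 3).

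In KO, 3 members fell and none rose: Psma7, Psmb2 and Psmd12. The share of all genes was 1.88% for those that fell and 2.66% for those that rose. Psma7, an alpha subunit, had log2 signals of 10.63, 10.87 and 10.80 in KO ND and 10.21, 10.53 and 10.25 in KO HFD. Its WT signals were 10.64, 10.63 and 10.59 on ND and 10.55, 10.65 and 10.56 on HFD and overlapped. Psma7 fell by 0.43 ± 0.10 in KO (0.74-fold, limma adjusted p = 0.0259), with -0.04 ± 0.10 in WT; the difference between these, the interaction, was -0.40 ± 0.14 (adjusted p = 0.344). The second Psma7 probe set had -0.40 in KO (adjusted p = 0.0546) and 0.02 in WT. Psmb2, a structural beta subunit, had 10.29, 10.38 and 10.31 in KO ND and 9.92, 10.08 and 10.02 in KO HFD, and fell by 0.32 ± 0.08 (0.80-fold, limma adjusted p = 0.0372). Its WT signals were 10.23, 10.24 and 10.28 on ND and 10.11, 10.18 and 10.24 on HFD.

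The KO calls were lost when certain single mice were left out. Leaving out KO ND mouse 2 or 3, or KO HFD mouse 1 or 3, left 0 of them, and leaving out KO ND mouse 1 left 1. With the 3′ to 5′ ratio as a covariate 1 member passed, Psma7 (-0.46, limma adjusted p = 0.046).

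Psma1, the remaining alpha subunit that passed, did so only in the average. It had 10.75, 10.87 and 11.01 in WT ND, 10.74, 10.56 and 10.53 in WT HFD, 10.81, 10.88 and 10.76 in KO ND, and 10.52, 10.78 and 10.51 in KO HFD, and fell by 0.24 ± 0.07 (limma adjusted p = 0.0384). The next brightest probe sets of Psma1, tested on their own, fell by 0.68 (limma adjusted p = 0.0223) and 1.24 (adjusted p = 0.012) in the average. Of the 31 further probe sets of 20 members that were bright enough to test, 8 fell in the average and none rose, beside 5.70% and 5.52% of the 19387 probe sets tested; the 8 belong to Psma1, Psma3, Psmc2, Psmc4, Psmd11 and Psme4. That of Psma3, an alpha subunit, fell by 0.67 (limma adjusted p = 0.0162), while its brightest had -0.07. With 1 mouse left out the average comparison gave between 4 and 9 members, and 4 or 5 without WT ND mouse 2 or 3, WT HFD mouse 2, any KO ND mouse, or KO HFD mouse 1 or 3. The average calls of Psmd8, Psmd11, Psmd12 and Psmd7 held with any 1 mouse left out; those of Psma1, Psma7 and Psmb2 were lost in 9, 10 and 9 of the 12 cases. With the 3′ to 5′ ratio as a covariate 1 member was left, Psmd11 (-0.38, limma adjusted p = 0.0314).

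The alpha and beta genes were alike in sign in KO and not in WT, a contrast that was not tested. Among the 7 alpha genes, 6 had a WT diet difference below 0 and 7 a KO one, with medians of -0.05 and -0.17. Among the 7 beta genes, 1 of the WT differences was below 0, with a median of 0.12, while all 7 KO differences were, with a median of -0.14. The KO differences start from a higher ND level. On ND, 0 of the 7 beta genes had a KO minus WT difference below 0, with a median of 0.10. On HFD all 7 did, with a median of -0.11. Relative to the WT ND mean, the beta genes averaged 0.03, 0.21 and 0.12 in the KO ND mice and -0.04 in each KO HFD mouse. The WT beta median was 0.03 with the 3′ to 5′ covariate, 0.06 with quantile normalization or the mean of all probe sets, 0.07 without WT HFD mouse 3 and 0.08 without WT HFD mouse 2. The KO one was -0.09 without KO ND mouse 2 or with quantile normalization and -0.26 with median centring. Psmb4, a structural subunit, had 11.53, 11.62 and 11.63 in WT ND, 11.68, 11.71 and 11.77 in WT HFD, 11.62, 11.80 and 11.69 in KO ND, and 11.43, 11.60 and 11.49 in KO HFD. Psmb5, which carries the chymotrypsin-like site, had 10.64, 10.56 and 10.53 in WT ND, 10.68, 10.75 and 10.71 in WT HFD, 10.62, 10.68 and 10.63 in KO ND, and 10.51, 10.58 and 10.59 in KO HFD. In these 2 of 42 members the HFD mice lay above all ND mice in WT and below all ND mice in KO, which 0.388% of all genes did. The interaction of diet and genotype was -0.33 ± 0.11 for Psmb4 (limma adjusted p = 0.314) and -0.21 ± 0.10 for Psmb5 (adjusted p = 0.481). It was below 0 for all 7 beta genes, with a median of -0.21, and passed for none of the 42 members. The interaction was below 0 for 48.7% of all genes, and for 61.0% of the 3468 genes at least as bright as the dimmest 26S subunit. The background of interaction calls was 0.141% of genes, and at an unadjusted p under 0.05 the counts were 6 of 42 members and 1178 of 11345 genes.

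**Figure D3:**
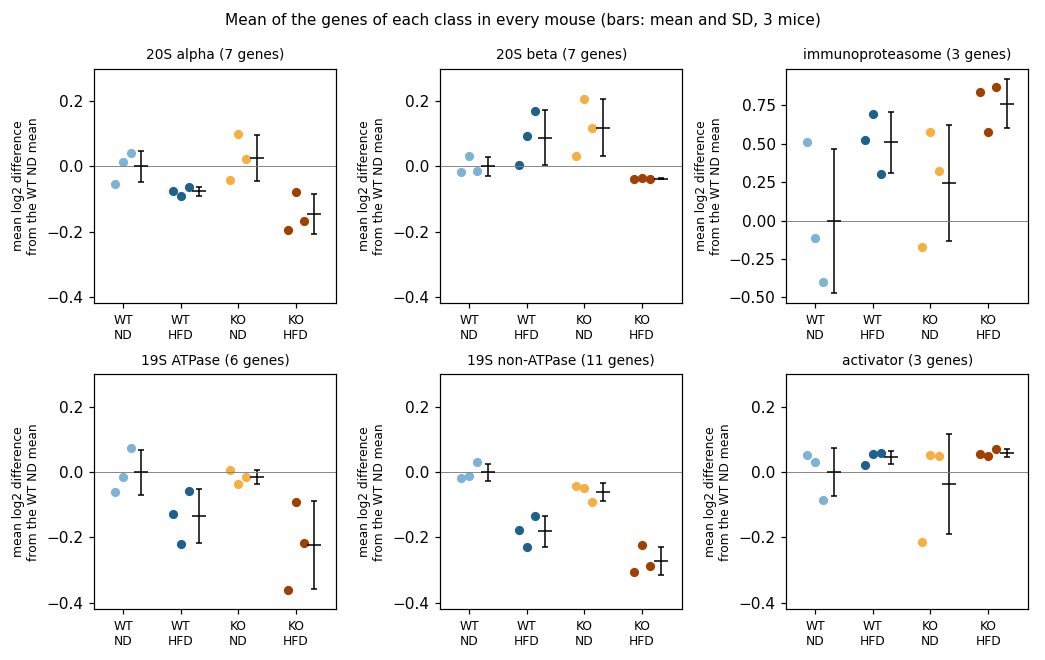
Mean log2 difference from the WT ND mean over the genes of a role, 1 point a mouse, with the group mean and SD (3 mice). The 11 non-ATPase genes averaged -0.23 to -0.14 in WT HFD and -0.31 to -0.22 in KO HFD, below all ND mice. The 7 beta genes averaged 0.00 to 0.17 in WT HFD, 0.03 to 0.21 in KO ND and -0.04 in each KO HFD mouse.

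Nearly all of the 31 subunits of the 26S particle had a diet difference below 0 in KO, and the WT differences lay on both sides of 0. In KO 30 of the 31 had a diet difference below 0, with a median of -0.17, against a median of 0.05 over all 11345 genes. In WT 20 of the 31 were below 0 and 11 above, with a median of -0.07 against 0.04, and in both genotypes 19 of the 31 were (61.3%), against 25.6% of all genes tested. Of all genes, 42.5% had a diet difference below 0 in KO and 44.7% in WT. Of the 3468 genes at least as bright as the dimmest 26S subunit, 49.7% did in KO and 38.4% in WT. The median diet difference of these bright genes was 0.001 in KO and 0.08 in WT. The KO count was between 28 and 30 and the WT count between 18 and 23 under the alternatives tried, the 3′ to 5′ covariate (30 and 22) and each left-out mouse included. The WT median of the 26S subunits ran from -0.12 with the mean of all probe sets to -0.04 without WT ND mouse 1. It was -0.05 without WT HFD mouse 1. Centring each array on its median moved the KO median of all genes from 0.05 to -0.06 and that of the 26S subunits to -0.29. The same centring moved the genes past the threshold in WT from 348 that rose and 339 that fell to 144 and 304, in KO from 302 and 213 to 99 and 314, and in the average from 850 and 702 to 345 and 850. The 10 muscle fibre genes all had diet differences above 0 in both genotypes, with medians of 0.12 in WT and 0.14 in KO. None passed in either genotype, and 2 rose in the average, beside 7.49% of all genes. The median of the 14 core genes in WT was 0.0003 and turned to -0.03 under median centring and -0.06 under quantile normalization.

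Averaged over the 31 genes, the log2 difference from the WT ND mean was -0.03, 0.00 and 0.03 in the WT ND mice, -0.10, -0.12 and -0.03 in WT HFD, -0.02, 0.04 and 0.00 in KO ND, and -0.23, -0.12 and -0.19 in KO HFD. The KO HFD mice lay below all ND mice, and WT HFD mouse 3 lay close to the lowest ND mouse. Counted gene by gene, the HFD mice lay wholly below the ND mice for 10 of 42 members in WT, where 11.1% of all genes did, and for 21 of 42 in KO, where 10.2% did. In both genotypes 6 members were so separated, beside 3.67% of all genes: Psma2, Psmc1, Psmc6, Psmd7, Psmd11 and Psmd12. Psma2, an alpha subunit, had 10.91, 11.02 and 10.96 in WT ND, 10.85, 10.80 and 10.84 in WT HFD, 10.94, 11.08 and 10.95 in KO ND, and 10.79, 10.76 and 10.91 in KO HFD, with an average difference of -0.15 ± 0.05 (limma adjusted p = 0.0762). Psmc1, an ATPase, had an average difference of -0.17 ± 0.07 (adjusted p = 0.0942).

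Psmb10 was the one member that rose, and the other immunoproteasome subunits had positive diet differences that did not pass, with wide spread between mice. Psmb10 had log2 signals of 6.88, 6.44 and 5.82 in WT ND, 6.82, 7.52 and 7.22 in WT HFD, 6.50, 7.11 and 6.60 in KO ND, and 7.35, 7.19 and 7.40 in KO HFD. The diets overlapped in WT, where ND mouse 1 was high, and did not overlap in KO. Psmb10 rose by 0.69 ± 0.18 in the average (1.61-fold, limma adjusted p = 0.0227), with 0.80 ± 0.25 in WT (adjusted p = 0.0784) and 0.58 ± 0.25 in KO (adjusted p = 0.225). The WT difference was 1.05 without WT ND mouse 1 (adjusted p = 0.0244), and the average one missed the threshold without WT HFD mouse 2 (0.61, adjusted p = 0.0577), KO ND mouse 1 (0.63, adjusted p = 0.0575) or KO HFD mouse 3 (0.67, adjusted p = 0.0547), and with median centring (0.62, adjusted p = 0.0535). With the 3′ to 5′ ratio as a covariate the average difference was 0.64 and missed it by more (limma adjusted p = 0.184).

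Psmb9 had 5.53, 4.93 and 4.75 in WT ND, 5.97, 5.45 and 5.41 in WT HFD, 5.03, 5.77 and 5.61 in KO ND, and 6.21, 5.79 and 6.15 in KO HFD. The diets did not overlap in KO and overlapped in WT. Its differences were 0.54 ± 0.27 in WT, 0.58 ± 0.27 in KO and 0.56 ± 0.19 in the average (limma adjusted p = 0.0683). The average difference passed without WT ND mouse 1 (limma adjusted p = 0.0295) and missed the threshold in the other 19 of 20 alternatives. With the 3′ to 5′ ratio as a covariate it was 0.55 (limma adjusted p = 0.281). Psmb8, whose promoter window is printed above, had 6.96, 6.11 and 6.05 in WT ND, 6.62, 6.95 and 6.11 in WT HFD, 5.80, 6.68 and 6.59 in KO ND, and 6.77, 6.59 and 6.89 in KO HFD, overlapping in both genotypes. Its average difference was 0.29 ± 0.21 (adjusted p = 0.381), and it was -0.59 when the mean of its 2 probe sets was used, of which the second lies below the filter.

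**Figure D4:**
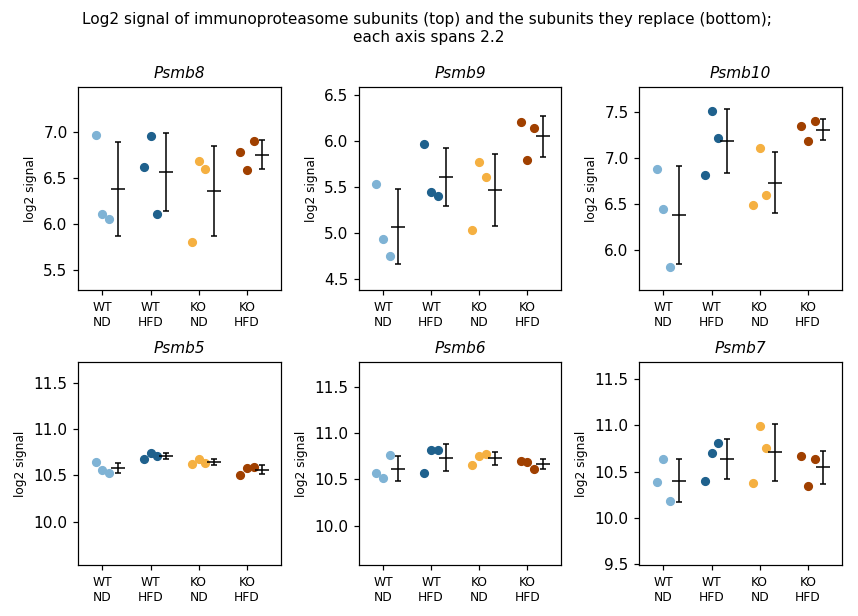
Log2 signal of each mouse for Psmb8, Psmb9 and Psmb10 (top) and for Psmb5, Psmb6 and Psmb7, which they replace (bottom), with group means and SD (3 mice); every axis spans the same range. In most groups the top panels spread more between mice than Psmb5 and Psmb6 below, and for Psmb9 and Psmb10 the KO HFD mice lie above all KO ND mice.

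Within each array, the signal of an immunoproteasome subunit minus that of its counterpart shows unequal movement of the pair. Psmb10 minus Psmb7 had group means of -4.02 ± 0.45 in WT ND, -3.45 ± 0.23 in WT HFD, -3.97 ± 0.16 in KO ND and -3.24 ± 0.08 in KO HFD (SD, n = 3 each). The diet difference was 0.65 (exact permutation test within genotype, two-sided, p = 0.015, 0.09 after Benjamini-Hochberg adjustment over 6 tests; the smallest p possible is 0.005). Psmb9 minus Psmb6 differed by 0.53 (exact permutation p = 0.045, adjusted 0.135) and Psmb8 minus Psmb5 by 0.26 (exact permutation p = 0.275, adjusted 0.412). The genotype differences were 0.13, 0.40 and 0.13 for the Psmb8, Psmb9 and Psmb10 pairs, with exact permutation p of 0.575, 0.105 and 0.41. None of the 6 passed after adjustment; without WT ND mouse 1 the diet differences were 0.66 for Psmb9 minus Psmb6 and 0.78 for Psmb10 minus Psmb7, each with an adjusted exact permutation p of 0.03.

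Among the activators, Psme1, a subunit of the interferon-inducible 11S cap, had 9.02, 9.08 and 8.81 in WT ND, 9.12, 9.38 and 9.08 in WT HFD, 8.97, 9.28 and 9.43 in KO ND, and 9.57, 9.36 and 9.48 in KO HFD. Its average diet difference was 0.23 ± 0.09 (limma adjusted p = 0.112). With the 3′ to 5′ ratio as a covariate that difference was 0.10 (limma adjusted p = 0.69), with 0.04 in WT and 0.16 in KO. Psme3, which forms the nuclear cap, had an average difference of 0.02 ± 0.09, and Psme4, the PA200 activator, of -0.04 ± 0.06. One dimmer Psme4 probe set, tested on its own, fell by 0.54 in the average (limma adjusted p = 0.0192). Psme4 had 12.12, 12.10 and 12.01 in WT ND and 11.78, 11.88 and 11.83 in KO ND, which did not overlap, a difference of -0.24 ± 0.09 (adjusted p = 0.285). The base chaperones Psmd5, Psmd9 and Psmd10 had average differences of 0.05 ± 0.12, -0.12 ± 0.10 and 0.20 ± 0.10, none of which passed.

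Other genes of antigen processing and markers of leukocytes, which are rich in immunoproteasome, were set beside these values. Of 20 tested genes of peptide loading and interferon response, 5 rose in KO on high fat diet, Tapbp, B2m, Irf1, Gbp2 and Ubd. None fell in KO and none passed in WT. Over all genes 2.66% rose and 1.88% fell in KO, and 3.07% rose and 2.99% fell in WT. Tapbp, the peptide-loading chaperone tapasin, rose by 0.71 in KO (limma adjusted p = 0.0089; 0.20 in WT), and B2m, the light chain of MHC class I, rose by 0.86 (adjusted p = 0.02; 0.19 in WT). Ubd, a ubiquitin-like protein that targets proteins to the proteasome, rose by 5.06 in KO (adjusted p = 0.0013), with 0.41 in WT. The summed linear signal of 15 leukocyte markers was 2820 to 3652 in WT ND, 2147 to 3777 in WT HFD, 2096 to 2813 in KO ND and 4034 to 6410 in KO HFD, so it separated the diets in KO and not in WT. Of the 13 tested, 8 rose in KO and none in WT, beside 2.66% and 3.07% of all genes. Cd3e and Cd79a, which define T and B cells, lay below the filter. The 13 tested markers had a median diet difference of -0.06 in WT and 0.99 in KO. Psmb8, Psmb9 and Psmb10 had differences of 0.18, 0.54 and 0.80 in WT, and of 0.39, 0.58 and 0.58 in KO. The summed signal of 6 adipocyte genes was 20820 to 22619 in WT ND and 22293 to 29571 in WT HFD. It was 20337 to 24584 in KO ND and 29164 to 29951 in KO HFD. The median diet difference of these genes was 0.10 in WT, with 4 of 6 above 0, and 1.33 in KO, with all 6. None passed in WT and 1 rose in KO, beside 3.07% and 2.66% of all genes that rose. The part of leukocytes and adipocytes in the Psmb8, Psmb9 and Psmb10 values was not tested.

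**Figure D5:**
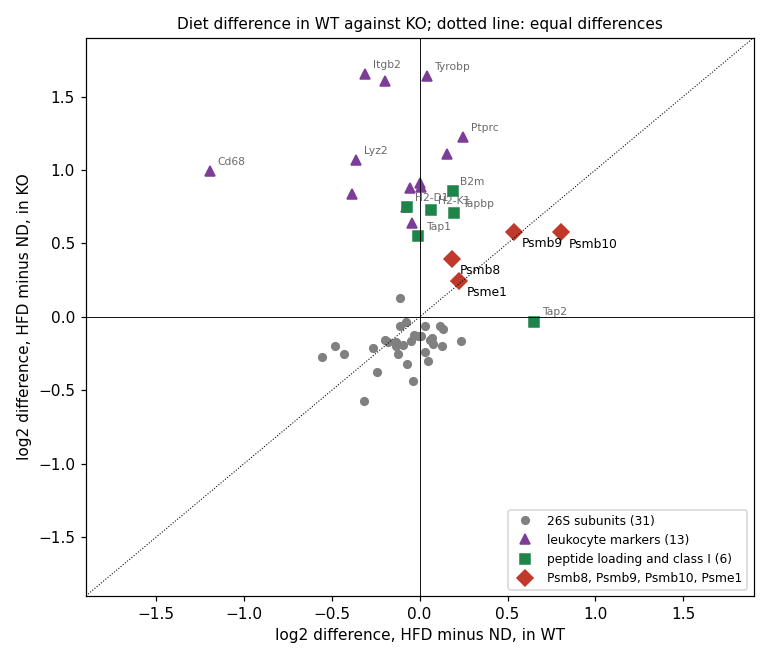
Diet difference in WT (horizontal) against KO (vertical), log2 HFD minus ND, for the 31 subunits of the 26S particle, Psmb8, Psmb9, Psmb10 and Psme1, 6 peptide loading and class I genes and 13 leukocyte markers. The dotted line marks equal differences: Psmb9 and Psme1 lie near it, while most leukocyte markers lie high in KO and near or below 0 in WT.

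On either diet, the knockout itself showed no member past the threshold. On ND, 0 of 42 members passed, beside 0.414% of all genes, and 3 of 42 members and 1277 of all genes had an unadjusted p under 0.05. On HFD, 0 of 42 passed, beside 0.732%, and 6 of 42 members and 1681 of all genes had an unadjusted p under 0.05. Of the 31 subunits of the 26S particle, 26 had a KO minus WT difference below 0 on HFD, with a median of -0.09, and 12 did on ND, with a median of 0.03. The HFD median was -0.03 with quantile normalization (22 below 0), -0.15 with median centring (30 below 0), -0.13 with the mean of all probe sets and -0.05 without WT HFD mouse 3. Over all genes those medians were 0.03 and 0.02, and over the 3468 genes at least as bright as the dimmest 26S subunit the HFD median was -0.06. The share with a KO minus WT difference below 0 on HFD was 46.1% of all genes and 62.7% of these 3468. On ND it was 46.7% and 45.2%.

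Genes that act with the proteasome were divided. Among 20 assembly and accessory factors, 5 fell and 1 rose in the average, beside 6.19% and 7.49% of all genes. Zfand2a, a stress-induced protein that binds the 19S regulator, fell by 1.71 in WT (limma adjusted p = 0.0081), with -0.85 in KO (adjusted p = 0.14). Zfand5, a zinc-finger protein that stimulates the proteasome, fell by 0.50 in KO (adjusted p = 0.024). Txnl1, a thioredoxin attached to the 19S lid, fell by 0.38 in WT (adjusted p = 0.033). Akirin2, which brings proteasomes into the nucleus, and Ubqln1, a shuttle for ubiquitinated proteins, fell by 0.28 and 0.21 in the average (limma adjusted p = 0.035 and 0.04), and Psmg1, a chaperone of alpha ring assembly, rose by 0.57 (adjusted p = 0.017). Pomp, the maturation factor of the core, had 0.05 (adjusted p = 0.61).

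Of 15 ubiquitin-conjugating and activating genes tested, 1 fell and 1 rose in the average, Ube2j1 and Cdc34, beside 6.19% and 7.49% of all genes. The genes for ubiquitin itself had no probe set of a single symbol. Nfe2l1 had diet differences of 0.03 in WT and 0.14 in KO, and neither passed. Among the 13 tested genes of its regulation and of its relatives, 5 fell in the average, beside 6.19% of all genes. They were Bach1, Mafk, Mafg, Nfe2l2 and Syvn1. Bach1, a repressor at the antioxidant response core, fell by 0.62 in WT (limma adjusted p = 0.011) and by 0.77 in KO (adjusted p = 0.0041). Mafk, one of the small Maf partners, fell by 0.87 in WT (adjusted p = 0.019) and by 0.81 in KO (adjusted p = 0.032).

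Whether members of one sub-complex varied together between mice differed by role, and pairs ranged widely. After each group's mean was removed, the median Pearson r over the 12 arrays was 0.63 for pairs of ATPases, 0.36 for alpha, 0.27 for beta and 0.01 for non-ATPase pairs. Single pairs ran from -0.70 to 0.85 among the ATPases, from -0.09 to 0.79 among alpha, from -0.25 to 0.87 among beta and from -0.83 to 0.64 among non-ATPase genes, so the non-ATPase genes did not vary together as a set. It was 0.20 over all 465 pairs of the 31 subunits and 0.002 for a 26S subunit with the other genes tested. Among Psmb8, Psmb9 and Psmb10 it was 0.46 to 0.78, and between them and the 26S subunits the median was -0.16. The pairs share arrays and scaling, and the values are descriptions without a test.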

How the data were processed

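MAS5 is the only tool that the submitters' processing notes name, with no version. The values the authors deposited are on a log2 scale and were used as they stand; the linear mean trimmed by 2% at each end was 100.0 on every array. Of 45101 probe sets, 64 were controls, 34945 others carried a single symbol, 932 several and 9160 none. The brightest probe set stood for a gene, and genes with a mean above the median of all probe sets, 3.78 (13.8 linear), were tested. In limma 3.58.1 (R 4.3.3) all 12 arrays shared a model with a mean per group and an intensity trend (8 residual degrees of freedom), with Benjamini-Hochberg adjustment per contrast at 0.05. The code was tested on simulated data. Pairs were compared by exact permutation in Python 3.11.15, with the Benjamini-Hochberg adjustment in scipy 1.17.1. With 3 arrays a group, their number limits the precision. The members, the lists and the rule that every member may be named by role were chosen with earlier results of these data known. The alternatives concerned an offset of 16, the filter, scaling, probe sets, the variance trend, an RNA quality covariate, the groups in the fit and each mouse left out; testing every probe set on its own was added after seeing the data.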

Additional observations from a re-analysis of the deposited data

How the results depend on the processing

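The counts of members past the threshold depended on the processing. In WT the count of 3 became 1 with the mean of all probe sets, 0 without the intensity trend, 0 with the 3′ to 5′ ratio as a covariate, and 0 to 3 with 1 mouse left out. In KO the count of 3 became 5, 0 and 1 under the same settings, 1 with only the groups compared in the fit, and 0 to 3 with 1 mouse left out. In the average the count of 8 became 5 without the trend, 1 with the covariate, and 4 to 9 with 1 mouse left out. The cause was not tested. With the mean of all probe sets, Psmd7, Psmd11 and Psma7 lost their calls in the average. With 1 mouse left out, the diet difference was 0.40 to 0.66 for Psmb9 minus Psmb6 and 0.57 to 0.78 for Psmb10 minus Psmb7, and both passed without WT ND mouse 1. Using the mean of all probe sets turned Psmb8 minus Psmb5 to -0.61, Psmb8 to -0.61 in WT, -0.56 in KO and -0.59 in the average, and Psmc1 in WT to 0.31; Psmb8 in WT was -0.012 to 0.48 with 1 mouse left out, the lowest without WT HFD mouse 2. No member past the threshold in the main setting reversed; of the 42 members, 24 kept their sign in the WT diet comparison under every alternative, 32 in KO and 28 in the average. No paired analysis was possible because replicate numbers were given in accession order and the labels pair no mice. For Psmb8 the second probe set lies below the filter. The brightest, with a mean log2 signal of 6.51, is limited by the spread between mice (SD of 0.15 to 0.51 within a group).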
